A study of Mus musculus with 12 samples.

Results

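The genes described are the 8 Hoxa cluster genes named Hoxa2, Hoxa3, Hoxa4, Hoxa5, Hoxa6, Hoxa7, Hoxa9 and Hoxa10, chosen by symbol from a table of 18546 genes, and all 8 were found in it. Their RNA was measured in hematopoietic stem cells (HSCs) that had been sorted from marrow. The mice were of strain C57BL/6 and 10 to 12 weeks old. The 4 groups were wild type, NrasG12D/+ (a heterozygous activating Ras allele, called Nras below), Tet2+/- (loss of a copy of a DNA demethylase gene, called Tet2 below) and the compound mutant carrying both alleles, with 3 libraries each. The cells carried the surface markers of SLAM HSCs (CD150 present, CD48 absent, lineage markers absent, Sca1 and Kit present), and their total RNA was depleted of ribosomal and mitochondrial RNA. Whether a Cre driver was used for the Nras allele is not given in the sources used here.

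Hox genes encode homeodomain transcription factors that lie side by side in clusters, and in embryos their order along the chromosome matches their order of use along the body axis. In blood, HSCs and early progenitors express genes of the Hoxa cluster and lower them as they mature. HOX proteins bind DNA together with TALE homeodomain partners of the PBX and MEIS families, and in leukemia Hoxa9 with Meis1 sustains self-renewal, with MLL complexes keeping the locus on and Polycomb complexes keeping it off. The data address whether the Nras allele, the loss of a Tet2 copy, or both together were accompanied by other Hoxa levels before leukemia.

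The cluster genes lay on the minus strand of chromosome 6, from 52162417 to 52240854 in mm10, with Hoxa10 farthest upstream and Hoxa2 farthest downstream. Hoxa3 was annotated from 52169062 to 52213336, an interval that holds Hoxa4 (52189671 to 52191753), Hoxa5 (52201754 to 52204587) and Hoxa6 (52206288 to 52208722). Hoxa7 ran from 52214491 to 52221854, Hoxa9 from 52223100 to 52231089 and Hoxa10 from 52231197 to 52240854, and Hoxa2 from 52162417 to 52164831. Of the 8 genes, 7 had an entry among RefSeq promoters of GRCm38.p6, the assembly that mm10 denotes. The 250 bases before a RefSeq start of 3 of them follow. Hoxa6 had the highest level in the cluster and Hoxa9 the most reads. Capitals in these 2 mark CG dinucleotides, the site of DNA methylation on which Tet2 acts. The Hoxa9 window precedes a start inside the annotated gene, which has 5 transcripts, and not its farthest upstream end. In Hoxa2, the gene read least, capitals mark the only matches to 2 motifs bound by TALE partners, TGACAG and TGATNNAT, of which the match to TGATNNAT lies on the opposite strand.
Hoxa6 (chr6:52208673-52208922, minus strand): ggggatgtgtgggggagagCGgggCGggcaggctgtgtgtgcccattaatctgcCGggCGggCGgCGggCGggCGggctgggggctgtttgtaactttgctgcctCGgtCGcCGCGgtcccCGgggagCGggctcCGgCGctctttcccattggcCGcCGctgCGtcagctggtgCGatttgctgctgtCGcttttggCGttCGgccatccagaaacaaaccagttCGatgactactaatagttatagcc
Hoxa9 (chr6:52227371-52227620, minus strand): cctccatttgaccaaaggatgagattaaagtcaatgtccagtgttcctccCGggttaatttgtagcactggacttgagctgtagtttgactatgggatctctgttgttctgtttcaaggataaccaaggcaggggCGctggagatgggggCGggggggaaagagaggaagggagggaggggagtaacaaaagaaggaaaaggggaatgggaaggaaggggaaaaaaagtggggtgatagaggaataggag
Hoxa2 (chr6:52164832-52165081, minus strand): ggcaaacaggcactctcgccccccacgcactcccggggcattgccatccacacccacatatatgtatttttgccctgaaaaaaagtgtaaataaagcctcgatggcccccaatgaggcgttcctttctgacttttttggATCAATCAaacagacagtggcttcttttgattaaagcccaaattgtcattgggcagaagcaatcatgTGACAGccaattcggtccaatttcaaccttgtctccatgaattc

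The Hoxa6 window held 24 CG dinucleotides and the Hoxa9 window 3, where the median over 32851 RefSeq promoter windows of this length was 6. The other windows held 28 in Hoxa5, 18 in Hoxa3, 20 and 7 in the 2 starts of Hoxa10, 7 in Hoxa7 and 6 in Hoxa2. Like the Hoxa9 window, those of Hoxa3, Hoxa7 and of the Hoxa10 start with 20 lie inside their genes. The Hoxa6 window lies partly inside its gene. The counts therefore describe single starts and not whole genes. Both strands were searched for the motifs. TGACAG was found in Hoxa2 and Hoxa3 and in 15.9% of all windows. TGATNNAT was found in Hoxa2 and in 7.68% of all windows, and both motifs stood together in 1.30%. A match is a stretch of letters, not a measured binding site, and no methylation or binding was measured here.

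The 12 libraries held 19205045 to 36890942 reads in genes. Nras RNA stood between 4.76 and 6.83 RPKM (reads divided by gene length and by library size) in all 12 libraries and Tet2 RNA between 4.09 and 7.03, and neither differed from wild type in any mutant by limma (lowest adjusted p 0.894), so gene level RNA does not check these labels. All 9 HSC genes examined were present, among them Kit at 64.7 to 86.0 RPKM, and Cd48 was at 0 reads in 9 libraries. T and NK cell markers, of which 3 of 7 listed were in the table, summed to at most 2.29 RPKM. B lineage markers, 3 of 6 in the table, summed to at most 7.90 RPKM, with Cd79b at 2.20 to 7.90 in all 12 libraries. Stroma and endothelium markers, 3 of 7 in the table, summed to at most 9.24 RPKM, with Pecam1 at 4.71 to 7.66. Genes of other marrow cells were also read in all 12 libraries, among them Cd34 at 17.7 to 25.6 RPKM, Flt3 at 4.65 to 13.4, Lyz2 at 75.2 to 109, Prtn3 at 4.46 to 12.8 and Car2 at 121 to 174. Of the other granulocyte and monocyte genes, Elane was at 0 reads in 9 libraries, Ngp in 10, Ltf in 6, and Mpo, S100a9 and Csf1r in 4 each. Of the other erythroid genes, Klf1 was at 0 in 5 and Hba-a1 in 2, while Hbb-bs, Hbb-bt and Epor had reads in all 12. Wild-type replicate 1 and Nras replicate 2 stood apart, with 3824 and 3268 genes at 0 reads against 1000 to 2621 in the other 10. By Xist and Y-linked reads, 5 libraries came from males (replicate 1 of every genotype and Tet2 replicate 3) and 7 from females, so wild-type replicate 1 was the only male wild-type library. Some values without the 2 libraries that stood apart are given below. In sorted bulk cells, fewer cells of a type and less RNA per cell cannot be told apart.

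Hoxa6, which is expressed in early progenitors, was the most abundant cluster gene per length. Its deposited level was 35.4 ± 10.4 RPKM (SD, n = 12), and it ranked first in 11 of 12 libraries. Below it the deposited levels were 15.6 ± 3.66 for Hoxa5, 13.4 ± 2.74 for Hoxa7, 12.4 ± 3.10 for Hoxa9, 6.87 ± 1.61 for Hoxa3, 5.09 ± 2.84 for Hoxa4, 2.55 ± 1.37 for Hoxa10 and 2.21 ± 1.74 for Hoxa2 (SD, n = 12). Hoxa6 exceeded Hoxa5 in all 12 libraries, while Hoxa5 exceeded Hoxa7 in 10, Hoxa7 exceeded Hoxa9 in 6 and Hoxa10 exceeded Hoxa2 in 9. Hoxa7 and Hoxa9 therefore had no order in these data, and the order of the members below Hoxa6 had exceptions in some libraries at every step.

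The order depended on the length given to each gene. The length behind the deposited values, recovered from the read steps, equalled the lengths of all annotated transcripts added together in 59.5% of 12196 genes with several transcripts, and the length of their merged exons in 0.279%. Adding transcripts counts shared exons more than once. The recovered length of Hoxa7 was 2.10 times, of Hoxa10 2.07 times, of Hoxa9 1.34 times and of Hoxa3 1.09 times that of the merged exons, and those of Hoxa4, Hoxa5 and Hoxa6, with 1 transcript each, equalled it. For Hoxa7 and Hoxa2 the recovered lengths, 6031 and 1681 bases, differed from the summed transcripts of the annotation used here, 6088 and 1775 bases. Per merged exon length Hoxa7 stood at 28.2 ± 5.74 RPKM, Hoxa9 at 16.7 ± 4.16 and Hoxa10 at 5.28 ± 2.83 (SD, n = 12). Hoxa7 then ranked second or higher in all 12 libraries and exceeded Hoxa9 in all 12. Hoxa9 exceeded Hoxa5 in 7 of 12 and Hoxa10 exceeded Hoxa4 in 7 of 12, so these pairs had no order. Hoxa6 kept its rank in 11 of 12 libraries on either scale. Differences between genotypes do not depend on the length.

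**Figure D1:**
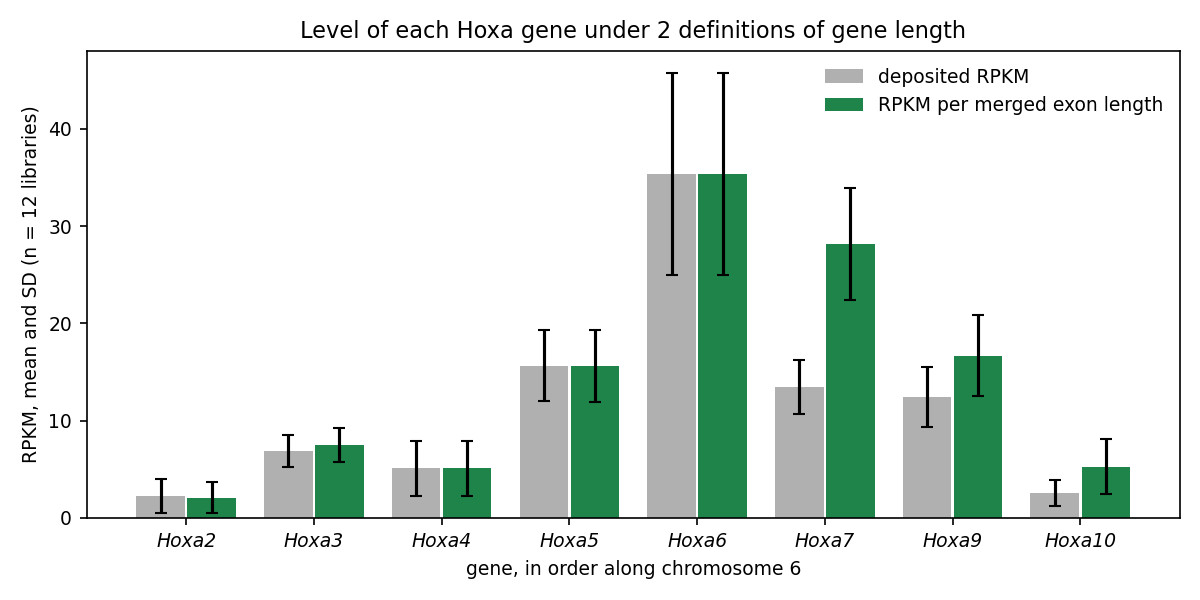
Mean RPKM and SD over 12 libraries for each Hoxa gene, with grey bars on the deposited length and green bars on merged exon length. Hoxa7 rises from 13.4 to 28.2 RPKM and Hoxa10 from 2.55 to 5.28 between the scales, and Hoxa6 stays at 35.4.

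No Hoxa gene passed an adjusted p of 0.05 in any comparison fitted, which did not include Nras against Tet2 directly. The test was limma on the deposited log2 RPKM, adjusted by Benjamini-Hochberg over 15478 genes. With voom on recovered reads 0 of 8 were called too, where 0 to 20 of all genes were, depending on the comparison. All 8 members passed the minimum of 1 RPKM in at least 3 libraries. Against wild type, 0 of 8 passed in Nras, in Tet2 and in compound libraries, where 0.00646% of all genes tested passed in each of these comparisons. The 3 comparisons share the same 3 wild-type libraries. At an unadjusted p under 0.05, 2 of 8 members were lower and 0 higher in Nras (2.42% and 3.19% of all genes were), 0 of 8 differed in Tet2 (3.35% did), and 1 was higher and 1 lower in compound libraries (3.36% and 3.06% of all genes were). The compound count became 0 of 8 without wild-type replicate 1, without compound replicate 2, and without the 2 libraries that stood apart, 1 without compound replicate 1 or Tet2 replicate 1, and 3 without compound replicate 3. The Nras count became 1 without Nras replicate 1 or 2 and 3 without wild-type replicate 3, and the Tet2 count became 2 and 1 without wild-type replicates 2 and 3. Without the 2 libraries that stood apart the Nras count stayed at 2, with Hoxa2 in place of Hoxa7. With libraries centred on their medians, voom, the compared groups alone or no variance trend, the Nras count was 1. The compound count was 1 with voom and 0 with the compared groups alone. With sex as a covariate the Tet2 count was 1. For genotype comparisons, the shares of all genes at an unadjusted p under 0.05, here and below, are those of the main fit. They were not taken in the changed settings, so the member counts there have no share to be set against. The median log2 difference of the 8 was -0.26 in Nras, 0.18 in Tet2 and -0.01 in compound libraries, and that of all genes 0.01, 0.04 and 0.02.

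**Figure D2:**
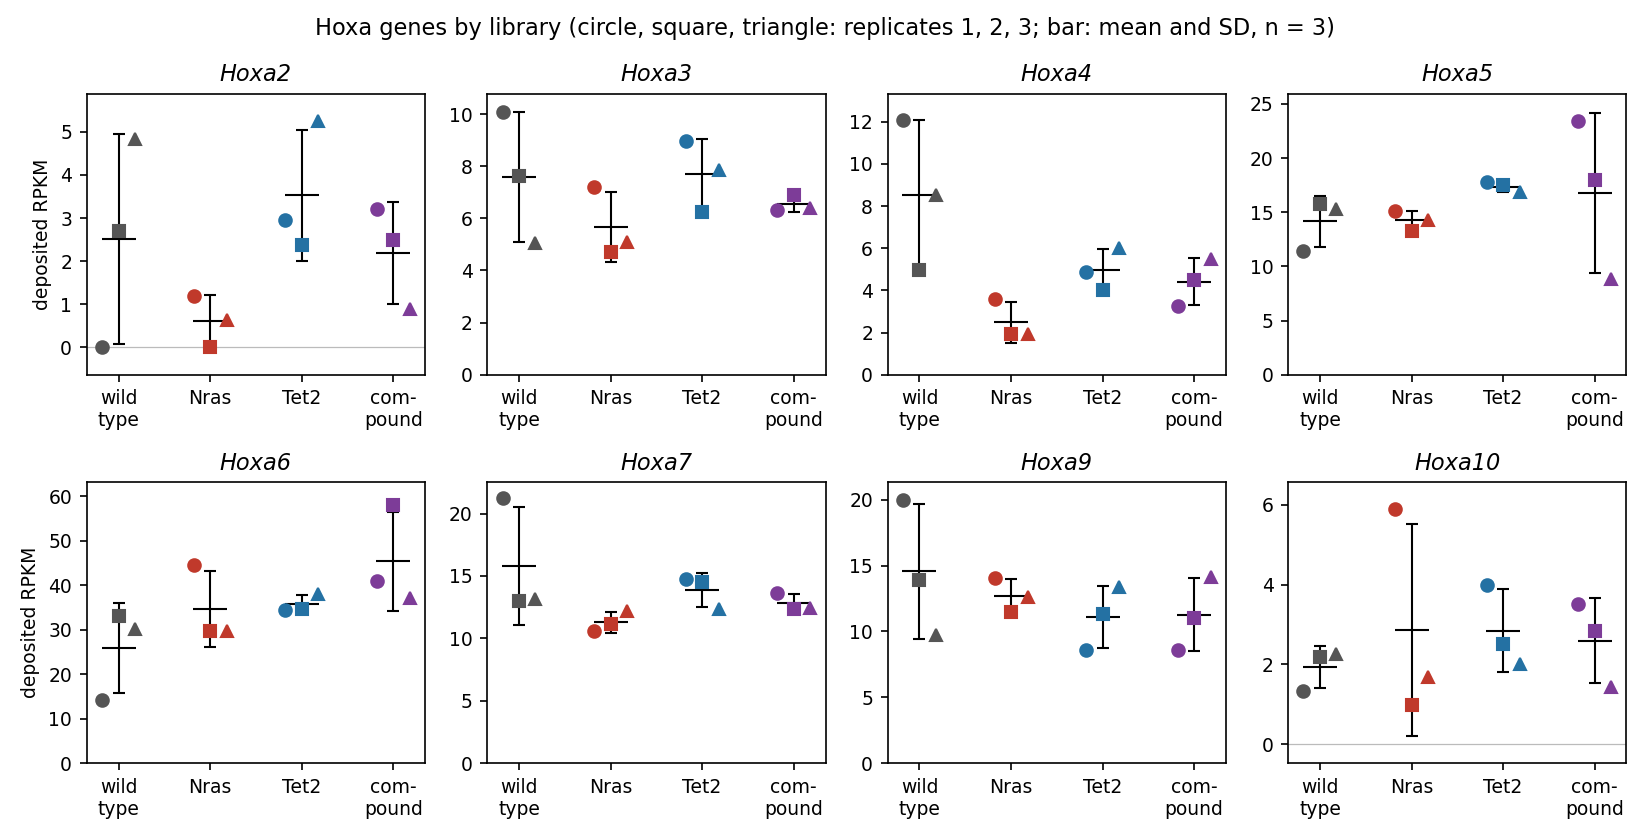
Deposited RPKM of each Hoxa gene in every library, with circles, squares and triangles for replicates 1, 2 and 3 and bars for the mean and SD (n = 3). Hoxa4 lies between 1.91 and 3.60 RPKM in the Nras libraries, under all 3 wild-type libraries at 4.96 to 12.1.

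Hoxa4, a gene that expands HSCs when overexpressed, had the largest difference among the 7 members with reads in every library. It stood at 12.1, 4.96 and 8.52 RPKM in wild-type replicates 1 to 3 and at 3.60, 1.91 and 1.94 in the Nras libraries. It stood at 4.86, 4.01 and 5.99 RPKM in the Tet2 libraries and at 3.24, 4.51 and 5.48 in the compound libraries. All Nras values lay under all wild-type values, while Tet2 and compound values overlapped those of wild type. In Nras against wild type the groups failed to overlap on the lower side for 2 of 8 members, Hoxa4 and Hoxa7, and for 4.48% of all genes, and on the higher side for 0 of 8 and for 5.27%.

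The mean Hoxa4 level was 8.52 ± 3.56 RPKM in wild type and 2.48 ± 0.965 in Nras (SD, n = 3 each). The log2 difference was -1.75 ± 0.38 (SE, 95% interval -2.60 to -0.91), with an unadjusted p of 0.000943 and an adjusted p of 0.634 by limma. It did not pass the threshold over all genes. With each library left out in turn the difference ranged from -2.10 to -1.46 and the adjusted p from 0.146 to 0.994. Without the 2 libraries that stood apart it was -1.30 (adjusted p 1 by limma).

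The Hoxa4 difference from wild type was -0.71 ± 0.38 in Tet2 and -0.89 ± 0.38 in compound libraries (SE), with limma adjusted p of 1 and 0.760. They were -0.41 and -0.59 without wild-type replicate 1. Compound libraries stood above Nras libraries by 0.86 ± 0.38 on the log2 scale (adjusted p 1), and the interaction, the compound value less what the single mutants add up to, was 1.57 ± 0.54 (unadjusted p 0.0152, adjusted p 0.996 by limma). Hoxa4 was the 1 member of 8 with an unadjusted p under 0.05 in these comparisons, against 4.04% of all genes in compound against Nras and 3.38% in the interaction. Without the 2 libraries that stood apart the Hoxa4 values were 0.71 in compound against Nras (unadjusted p 0.104 by limma) and 1.12 in the interaction (unadjusted p 0.0746 by limma), and 0 of 8 members had one under 0.05 in either. In compound against Nras the count was also 0 without any 1 of 7 libraries: all 3 Tet2 libraries, Nras replicates 2 and 3, wild-type replicate 3 and compound replicate 2. With libraries centred on their medians, quantile normalization, voom, the compared groups alone or no variance trend it was 0 as well. The interaction count was 0 with voom. No member passed the adjusted threshold in either, where 0% and 0.0129% of all genes did. With the Nras allele averaged over both Tet2 states, Hoxa4 was lower by -0.97 ± 0.27 (unadjusted p 0.00481, adjusted p 0.400 by limma), and again 0 of 8 passed, against 0.0323% of all genes. It was the 1 member of 8 with an unadjusted p under 0.05 there, against 7.24% of all genes, and the count was 3 without wild-type replicate 2 or 3, and 2 without Tet2 replicate 3 or without the 2 libraries that stood apart. Of the exon bases of Hoxa4, 16% lie opposite the antisense gene Gm29430, which had 0 to 123 reads where Hoxa4 had 89 to 469. The library kit marks strand, but the counting setting is not given in the sources used here, so reads from that stretch may have come from either gene.

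Hoxa6 had its highest mean in the compound libraries. It stood at 14.2, 33.1 and 30.1 RPKM in wild type, at 44.6, 29.7 and 29.7 in Nras, at 34.5, 34.7 and 38.0 in Tet2 and at 41.0, 57.9 and 37.1 in compound libraries. Wild-type replicate 1 was the lowest library of all 12, and all 3 compound values lay above all 3 wild-type values. The log2 difference of compound from wild type was 0.88 ± 0.31 (SE, 95% interval 0.20 to 1.56), with an unadjusted p of 0.0164 and an adjusted p of 0.754 by limma. Without wild-type replicate 1 the difference was 0.50 (adjusted p 0.973 by limma). Hoxa6 was the 1 member of 8 whose compound and wild-type groups did not overlap, which held on the higher side for 6.09% of all genes. On the lower side it held for 0 of 8 and for 5.16%. Its differences in Nras (0.49 ± 0.31) and Tet2 (0.56 ± 0.31) had adjusted p of 0.870 and 1 by limma, and without wild-type replicate 1 they were 0.11 and 0.18. Leaving out both libraries that stood apart gave 0.21 in Nras.

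Hoxa5, a gene known for patterning the lung and for acting in blood progenitors, was most even in the Tet2 libraries. It stood at 11.4, 15.7 and 15.3 RPKM in wild type, at 15.1, 13.3 and 14.3 in Nras, at 17.8, 17.5 and 16.8 in Tet2 and at 23.4, 18.0 and 8.82 in compound libraries. The compound libraries held both the highest and the lowest value of all 12. All Tet2 values lay above all wild-type values, as for Hoxa6, so 2 of 8 members did not overlap on the higher side in Tet2, against 5.24% of all genes, and 0 of 8 on the lower side, against 4.01%. The Hoxa5 difference of Tet2 from wild type was 0.31 ± 0.29 (95% interval -0.34 to 0.96, adjusted p 1 by limma), and 0.16 without wild-type replicate 1.

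Hoxa7, active in early progenitors and often raised with Hoxa9 in MLL leukemia, was the least variable member. It stood at 21.2, 12.99 and 13.1 RPKM in wild type, at 10.6, 11.1 and 12.2 in Nras, at 14.8, 14.5 and 12.3 in Tet2 and at 13.6, 12.4 and 12.4 in compound libraries. Wild-type replicate 1 was the highest of all 12, and the other 11 lay between 10.6 and 14.8. The log2 difference of Nras from wild type was -0.44 ± 0.18 (95% interval -0.86 to -0.03), with an unadjusted p of 0.0367 and an adjusted p of 0.870 by limma. Without wild-type replicate 1 it was -0.21, and without the 2 libraries that stood apart -0.20 (unadjusted p 0.214 by limma). All compound values of Hoxa7 lay just above all Nras values, the 1 member of 8 with no overlap in that comparison against 8.48% of all genes, with a difference of 0.18 ± 0.18. Of the merged exon bases of Hoxa7, 20.4% lie opposite the antisense gene Hoxaas3, which had 0 to 337 reads where Hoxa7 had 1739 to 3023.

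Hoxa9, the member best known for HSC self-renewal and for acute myeloid leukemia, had the most reads, 1366 to 3443 per library. It stood at 19.96, 13.9 and 9.76 RPKM in wild type, at 14.0, 11.5 and 12.6 in Nras, at 8.62, 11.3 and 13.3 in Tet2 and at 8.61, 11.05 and 14.1 in compound libraries. Every mutant group overlapped wild type. Relative to wild type the log2 difference of Hoxa9 was -0.14 ± 0.28 in Nras (95% interval -0.75 to 0.47), -0.35 ± 0.28 in Tet2 (-0.96 to 0.26) and -0.34 ± 0.28 in compound libraries (-0.95 to 0.27), with limma adjusted p of 0.962, 1 and 0.836. Without wild-type replicate 1 these were 0.12, -0.093 and -0.079, and without wild-type replicate 3 the Tet2 and compound differences were -0.61 and -0.60. No difference was detectable at this spread, and the intervals bound what a difference could be.

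Hoxa10, its upstream neighbour, which acts in progenitor expansion and megakaryocyte development, varied most among members with reads in all libraries. It stood at 1.34, 2.20 and 2.27 RPKM in wild type, at 5.89, 0.987 and 1.69 in Nras, at 4.0, 2.51 and 2.0 in Tet2 and at 3.50, 2.85 and 1.43 in compound libraries. The Nras libraries held both the highest and the lowest value of all 12. Relative to wild type its log2 difference was 0.19 ± 0.64 in Nras, 0.53 ± 0.64 in Tet2 and 0.36 ± 0.64 in compound libraries, with limma adjusted p of 0.992, 1 and 0.933. The 95% interval in Nras ran from -1.23 to 1.61, and with each library left out in turn that difference ranged from -0.54 to 0.75.

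Hoxa3, which patterns the pharyngeal arches and thymus, stood at 10.1, 7.62 and 5.06 RPKM in wild type, at 7.19, 4.69 and 5.11 in Nras, at 8.96, 6.22 and 7.87 in Tet2 and at 6.33, 6.88 and 6.41 in compound libraries. All groups overlapped wild type, and the differences were -0.39 ± 0.27, 0.06 ± 0.27 and -0.16 ± 0.27 in Nras, Tet2 and compound libraries, with limma adjusted p of 0.870, 1 and 0.926. They were -0.16, 0.29 and 0.073 without wild-type replicate 1, and without the 2 libraries that stood apart the Nras value was -0.035. In a fit with sex as a covariate, added after the data were seen, Hoxa3 was the 1 member of 8 with an unadjusted p under 0.05 for males against females (0.40 ± 0.16 on the log2 scale, adjusted p 0.583 by limma), as had 8.05% of all genes. Sex and replicate number 1 nearly coincide in these libraries and cannot be told apart. Of the merged exon bases of Hoxa3, 4.86% to 8.36% lie opposite each of Hoxaas2, Hoxaas3, Gm29430 and 5730596B20Rik. A further overlap, of 8.01%, is with Gm28308 on the same strand.

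Hoxa2, a hindbrain and pharyngeal arch gene, was the least abundant. Its reads were 0, 113 and 281 in wild type, 60, 0 and 38 in Nras, 168, 103 and 234 in Tet2 and 114, 141 and 43 in compound libraries. The 2 libraries at 0 were those with the most genes at 0 reads, and a floor of 3 reads there corresponds to 0.0891 RPKM in wild-type replicate 1 and 0.0610 in Nras replicate 2. The libraries with reads stood at 2.70 and 4.84 RPKM in wild type, 1.20 and 0.626 in Nras, 2.95, 2.37 and 5.26 in Tet2 and 3.21, 2.48 and 0.883 in compound libraries. Counting the libraries at 0, the groups overlapped. Fitted differences for Hoxa2 rest on the prior count behind the 2 zeros, and their 95% intervals spanned -7.15 to 4.4 in Nras. Without both libraries the Nras difference was -2.06 ± 0.72 (SE, unadjusted p 0.0201, adjusted p 1 by limma).

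**Figure D3:**
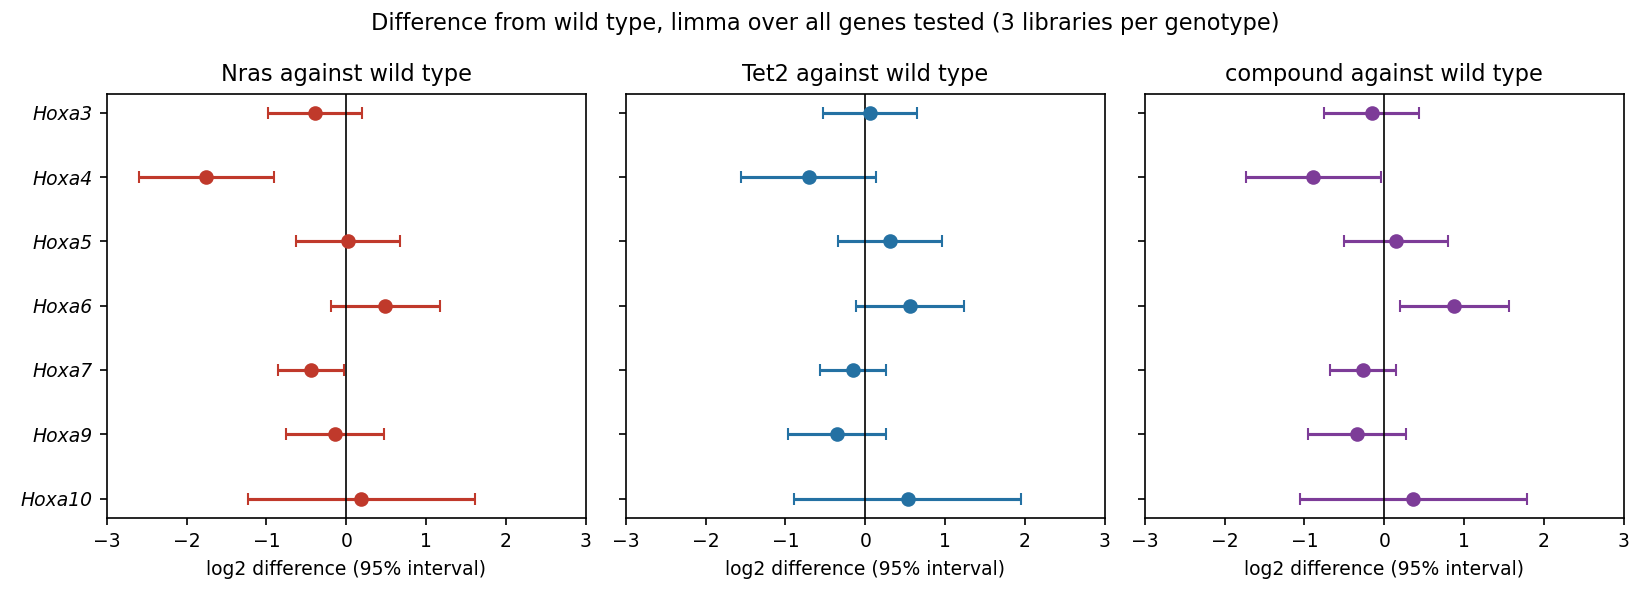
Log2 difference from wild type with its 95% interval for the 7 Hoxa genes with reads in every library, by limma, in Nras, Tet2 and compound libraries. Hoxa4 in Nras, at -1.75, lies farthest from 0, and most other intervals include 0.

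Comparing the compound mutant with the Tet2 mutant, 0 of 8 members passed (0.00646% of all genes did), 0 had an unadjusted p under 0.05 (5.45% of all genes did), and the groups overlapped for all 8 (they did not for 12.7% of all genes). The median difference was -0.17, against -0.03 over all genes. With the Tet2 allele averaged over both Nras states, 0 of 8 passed (0% of all genes did). The smallest unadjusted p was that of Hoxa6, 0.0529, with an adjusted p of 0.963 by limma and a difference of 0.47 ± 0.22, while 3.81% of all genes had one under 0.05. With 1 library left out, up to 3 members had one under 0.05 (3 without wild-type replicate 3, 2 without compound replicate 3, and 1 without wild-type replicate 2 or Nras replicate 1). In a test for any difference among the 4 genotypes 0 of 8 passed (0.0129% of all genes did), and Hoxa4 alone had an unadjusted p under 0.05 (p 0.00730, adjusted p 0.903 by limma, and p 0.0761 without the 2 libraries that stood apart). The count was 2 without compound replicate 3 or wild-type replicate 2, and 0 with voom. Across all genes 4.97% had an unadjusted p under 0.05.

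The summed Hoxa level overlapped between all genotypes. The 8 genes together, per merged exon length, came to 116 ± 6.78 RPKM in wild type, 105 ± 18.3 in Nras, 120 ± 3.20 in Tet2 and 123 ± 15 in compound libraries (SD, n = 3 each). The Nras libraries spread from 90.8 to 126 RPKM and so covered the wild-type range of 109 to 123. The genes that made up this sum did not all vary alike. Over the 7 members with reads in all libraries, 11 of 21 pairs had a positive Pearson correlation of log2 RPKM across the 12 libraries, with a median of 0.01 and a range of -0.73 (Hoxa6 with Hoxa7) to 0.65 (Hoxa4 with Hoxa7). These are descriptions over libraries that share genotypes and depth. Without wild-type replicate 1, 15 of 21 were positive with a median of 0.25, and Hoxa6 with Hoxa7 stood at -0.15.

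Wild-type replicate 1 was the highest library for Hoxa3, Hoxa4, Hoxa7 and Hoxa9 and the lowest for Hoxa2 and Hoxa6, so it held an end of the range for 6 of 8 members, and for 41.4% of all genes. Nras replicate 2 was the lowest for Hoxa2, Hoxa3, Hoxa4 and Hoxa10, 4 of 8 members, and held an end for 33.2% of all genes. The part of these libraries' make-up in the genotype differences was not tested beyond leaving them out. The spread between libraries of a genotype went past counting error in every member. The coefficient of variation within genotypes ran from 18.7% in Hoxa7 to 71.5% in Hoxa2, with 60.3% in Hoxa10, where counting alone gives 1.95% to 9.63%, so it was 5.87 to 13.5 times larger.

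**Figure D4:**
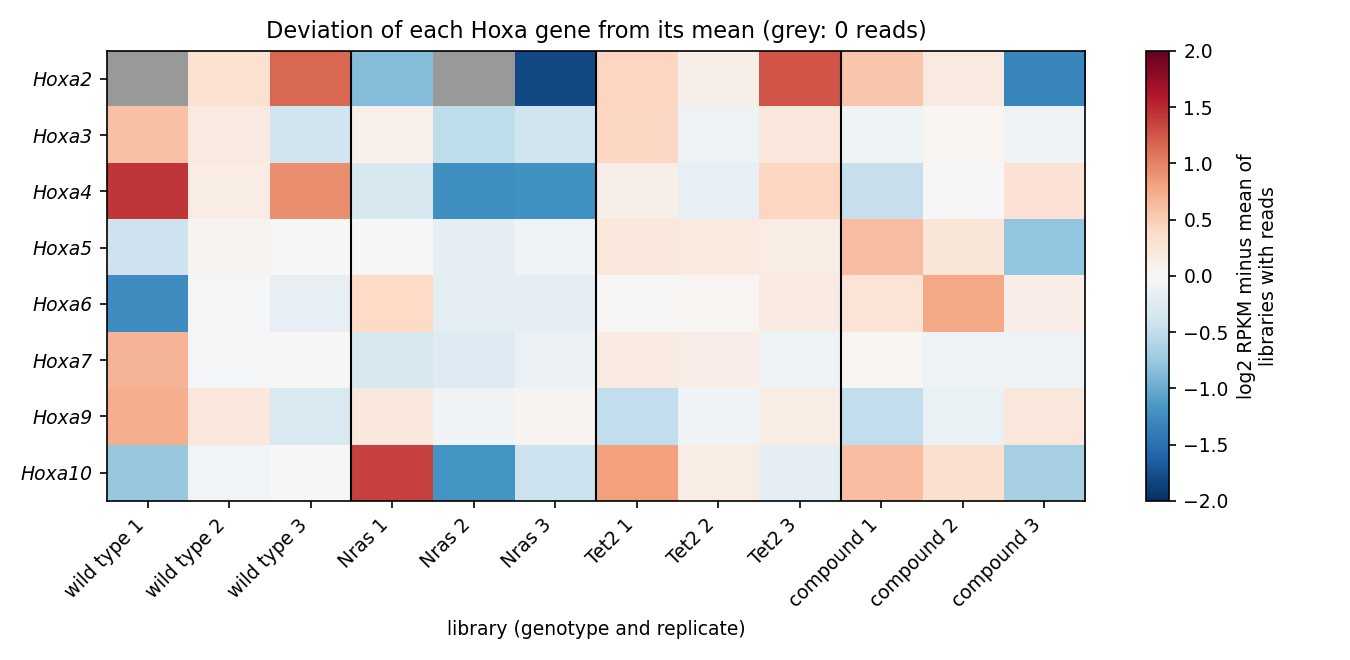
Log2 RPKM of each Hoxa gene in each library less the gene's mean over libraries with reads, in red above and blue below, with grey for 0 reads. Columns do not share 1 colour: wild type 1 is high for Hoxa4, Hoxa7 and Hoxa9 and low for Hoxa6, and Hoxa10 is high in Nras 1 and low in Nras 2.

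The genes whose log2 RPKM was most like that of Hoxa9 over the 12 libraries, among 11060 genes compared, were Tmem55b (r = 0.889), Thap4 (0.867), Zc3h10 (0.866), Anxa1 (0.858) and Rcl1 (0.854). Those most like Hoxa4 were Zfp839 (0.905), Gria3 (0.887), Gtf2h2 (0.865), Pura (0.859) and Trim12c (0.853). Without wild-type replicate 1 the values were 0.782 to 0.825 for the first set and 0.765 to 0.855 for the second. The highest of so many correlations over 12 libraries is a description only.

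Among genes of proteins that work with or on the cluster, 0 were called in every list and comparison. Over all genes tested, 0% to 0.0323% were called, depending on the comparison. Counts of 0 in lists this short are near that share. Of 11 TALE genes listed, 10 were in the table and 8 tested. Their median difference from wild type was 0.04 in Nras, 0.04 in Tet2 and 0.14 in compound libraries. The medians of all genes were 0.01, 0.04 and 0.02. Tgif2, a TALE repressor, stood at 2.82 ± 1.83 RPKM in wild-type libraries, 5.67 ± 1.40 in Nras, 5.03 ± 1.14 in Tet2 and 4.61 ± 1.24 in compound libraries (SD, n = 3), with an any-genotype adjusted p of 0.935 by limma. Pknox1, which encodes the HOX and PBX partner PREP1, stood at 3.72 ± 0.361 RPKM in wild-type libraries, 4.67 ± 1.07 in Nras, 3.43 ± 0.329 in Tet2 and 4.89 ± 0.512 in compound libraries.

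Of 24 activators of Hox loci (MLL complexes and cofactors), 21 were tested. Their medians were 0.04, 0.03 and 0.02 in Nras, Tet2 and compound libraries. Kat6a, a histone acetyltransferase needed for HSCs, stood at 21.1 ± 1.06 RPKM in wild-type libraries, 24.5 ± 1.01 in Nras, 22.3 ± 0.797 in Tet2 and 25.7 ± 0.563 in compound libraries (SD, n = 3; unadjusted p 0.0267, adjusted p 0.935 by limma). Rbbp5, a core subunit of MLL complexes, stood at 7.99 ± 0.983, 5.45 ± 0.904, 5.74 ± 0.184 and 5.18 ± 1.02 RPKM across these 4 genotypes.

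All 25 Polycomb genes listed were tested, with medians of -0.05, 0.10 and -0.11. Phf19, an accessory subunit of Polycomb repressive complex 2, stood at 1.52 ± 0.748 RPKM in wild-type libraries, 3.02 ± 0.532 in Nras, 2.51 ± 0.495 in Tet2 and 3.07 ± 0.153 in compound libraries (SD, n = 3), and Cbx2, a subunit of complex 1, at 4.90 ± 0.495, 5.605 ± 0.644, 5.88 ± 0.361 and 3.14 ± 1.44. Both had an any-genotype adjusted p of 0.935 by limma. Compound replicate 2 was the lowest Cbx2 library at 1.48 RPKM.

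All 18 genes listed as Hoxa9 and Meis1 targets were tested, with medians of 0.02, 0.08 and 0.09. None was called, against 0% to 0.0323% of all genes. Cdk6, a cell cycle kinase, stood at 25.6, 25.8 and 20.7 RPKM in wild type, at 41.8, 32.2 and 38.8 in Nras, at 26.9, 24.7 and 26.3 in Tet2 and at 39.3, 27.8 and 43.3 in compound libraries. Its any-genotype test gave an unadjusted p of 0.00657 and an adjusted p of 0.896 by limma. Bcl2, which blocks apoptosis, also had its higher means in the groups with the Nras allele, at 12.6 ± 0.936 RPKM in wild type, 18.1 ± 2.66 in Nras, 12.1 ± 1.04 in Tet2 and 18.4 ± 3.91 in compound libraries (SD, n = 3; adjusted p 0.925). Megakaryocyte marker genes, a list of 6 all in the table, summed to 25.3 to 36.0 RPKM in wild type, 33.7 to 57.3 in Nras, 24.2 to 32.3 in Tet2 and 38.5 to 44.3 in compound libraries, and their part in these values was not tested.

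Genes beside the cluster and in other Hox clusters gave a setting for these values. Of 9 neighbours, 7 were tested and 0 called, against 0% to 0.0323% of all genes, depending on the comparison. Skap2, which codes for an adaptor protein of blood cells, stood at 51.3 ± 8.27 RPKM in wild-type libraries, 64.9 ± 3.93 in Nras, 69.6 ± 10.6 in Tet2 and 66.3 ± 4.82 in compound libraries (SD, n = 3; any-genotype unadjusted p 0.0386, adjusted p 0.935 by limma). Tax1bp1, an autophagy receptor gene, stood at 50.9 ± 5.39, 41.6 ± 5.41, 45.4 ± 4.53 and 49.3 ± 6.41 RPKM across these 4 genotypes. Of 28 other Hox genes, 11 were in the table and 5 reached the minimum for a test. Of these 0 were called, against the same share of all genes. Hoxb6 stood at 1.70 ± 1.65 RPKM in wild type and at 2.47 ± 0.284, 2.76 ± 0.654 and 3.61 ± 0.577 in Nras, Tet2 and compound libraries, and wild-type replicate 1, at 0.0331, was its lowest library. Hoxb2 stood at 0.772 ± 0.733, 2.67 ± 1.48, 1.31 ± 0.518 and 1.05 ± 1.04 RPKM across these 4 genotypes.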

How the data were processed

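Members and gene lists were chosen with earlier results of these data known. The submitters' processing notes name CASAVA 1.8.2, TopHat2, edgeR and the build mm10, with no role or order. The authors deposited log2 RPKM per gene and library, with a small prior count inside the log. The deposited values gave whole reads for all 18546 genes within a tolerance of 0.001 reads, with a mean prior of 0.25 reads, and from these the depth and gene lengths were taken. RPKM printed at 0 means 0 reads.

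The 15478 genes that reached 1 RPKM in 3 or more libraries were fitted on the deposited log2 scale. R 4.3.3 with limma 3.58.1 gave each of the 4 genotypes a mean, over 12 libraries together, with a variance trend and 8 residual degrees of freedom. The submitters' design counts 3 mice per genotype. Tests were two-sided, adjusted by Benjamini-Hochberg, with a threshold of 0.05, and intervals are at 95%. The fit and the recovery were tested on simulated data. For the fit, changes were planted only in genes with an SD under the median, so that test does not cover genes of larger spread. All 8 members are named. From each gene list the 2 members with the smallest any-genotype p are named, and likeness gives the 5 genes with the highest Pearson correlation with Hoxa9 and with Hoxa4. Alternatives were testing every gene, a pseudocount of 0.5 RPKM, centring libraries on their medians, quantile normalization, voom on recovered reads, the compared groups alone, a replicate block, no variance trend and each library left out. Values without the 2 libraries that stood apart, with sex as a covariate and per merged exon length (GENCODE M21) were added after the data were seen. Counting intervals and the floor of 3 reads cover counting error only, since copies made by PCR are counted as reads.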

Additional observations from a re-analysis of the deposited data

How the results depend on the processing

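No member passed under any of the 22 alternative settings, the lowest adjusted p being 0.146, and with the replicate block 0 of 8 passed in any comparison (lowest adjusted p 0.416 by limma). Over all genes, 0 to 22 were called per setting and comparison. The highest number was that of the any-genotype test without wild-type replicate 2. The count of 0 of 8 is near that share and says little about the members. Same-numbered libraries deviated together, though weakly. Their deviations correlated at 0.0229 to 0.131 (median 0.0546), above 0.1 in 3 of 18 pairs. Those of libraries with other numbers correlated at -0.0943 to 0.0446 (median -0.0333). In 35 of 36 library and genotype comparisons the closest library was that of the same number. The main fit held no term for the number, which only the replicate block did. The cause of the turns given below was not tested.

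Without the 2 libraries that stood apart, the member median was -0.056 in Nras against wild type and -0.00098 in the interaction. Single genes there turned to -0.077 (Hoxa5) and 0.19 (Hoxa9) in Nras, -0.12 (Hoxa2) and 0.082 (Hoxa7) in Tet2, and -0.92 (Hoxa2), 0.073 (Hoxa3) and -0.0021 (Hoxa5) in compound libraries. With voom Hoxa5 turned to -0.010 in Nras, and with sex as a covariate Hoxa3 turned to -0.077 in Tet2.

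Leaving out each library in turn, the member median ranged from -0.47 to 0.00058 in Nras, -0.15 to 0.20 in compound, 0.14 to 0.52 in compound against Nras and -0.092 to 0.32 in the interaction. In Nras against wild type, Hoxa2 ranged from -4.52 to 1.09, Hoxa5 from -0.13 to 0.10, Hoxa9 from -0.40 to 0.12 and Hoxa10 from -0.54 to 0.75. In Tet2, Hoxa2 ranged from -0.12 to 4.82, Hoxa3 from -0.21 to 0.29 and Hoxa7 from -0.27 to 0.082. In compound libraries, Hoxa2 ranged from -0.92 to 4.02, Hoxa3 from -0.42 to 0.073 and Hoxa5 from -0.15 to 0.55. No scaling moved the median of all genes by over 0.1. With 3 libraries per genotype, only differences well past the spread between libraries could pass.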

Other observations

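Of a list of 11 other named genes of the Hoxa cluster, 2 were in the table, and both are antisense RNAs of low level that did not reach the minimum for a test. The antisense gene Gm29430, which was not on that list, was in the table too. Hoxaas3 had 0, 5 and 0 reads in the wild-type libraries, 68, 0 and 103 in Nras, 104, 3 and 26 in Tet2 and 94, 337 and 78 in compound libraries. The compound libraries, at 0.739 to 2.74 RPKM, lay above all wild-type libraries, at 0 to 0.0575 RPKM, and overlapped the other mutants. Among the genes tested, 6.09% had all compound libraries above all wild-type libraries. Hoxaas3 was not tested, and its wild-type values rest on at most 5 reads. Hoxaas2 had 0, 39 and 103 reads in wild type, 0, 0 and 31 in Nras, 72, 0 and 4 in Tet2 and 0, 85 and 0 in compound libraries, with no group apart from the rest.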
